A study of Mus musculus with 15 samples.

Results

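Nr4a2, Cbln4, Cplx3, Nxph4, Ccn2 and Gnb4 are 6 genes, all but Cbln4 used as markers of small groups of neurons at the deep edge of the cortex, that were followed through hippocampal RNA of mice that received docosahexaenoic acid (DHA) or vehicle. Nr4a2 and Cbln4 were chosen because their counts were higher under DHA in these same mice. Cplx3, Nxph4 and Ccn2 were taken as known markers of cortical layer 6b, and Gnb4 as a marker of the claustrum. All 6 were found among the 55401 genes counted, and all 6 were among the 19536 genes that had enough reads to be tested.

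RNA was sequenced from the hippocampi of 15 aged female mice, 18 to 20 months old, in 4 groups. Tg2576 mice carry human amyloid precursor protein with the Swedish familial Alzheimer's disease mutation, driven by the prion promoter, so the protein is overproduced in many cells and not in 1 cell type. Their transgene-negative littermates (Tg2576 -/- in the labels) are called WT here. DHA was given by daily gavage in sesame oil at 450 mg/kg for 5 weeks, and vehicle mice received sesame oil, so all 15 mice had the oil and the gavage. Of the WT mice 4 received vehicle and 4 DHA, and of the Tg2576 mice 4 received vehicle and 3 DHA, and each replicate was a separate mouse.

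Layer 6b is the thin deepest layer of the neocortex and holds neurons that persist from the embryonic subplate. The claustrum is a sheet of grey matter beneath the insular cortex. Neither belongs to the hippocampus, but the deep cells of the neighbouring subiculum and entorhinal cortex share several of these markers. Nr4a2 (also called Nurr1) is an orphan nuclear receptor, is switched on by neuronal activity through the factor CREB, and pairs with retinoid X receptors, for which DHA is a known ligand. Cbln4 is a secreted synaptic organiser that binds neurexins. Cplx3 is a complexin that regulates synaptic vesicle release, Nxph4 is a secreted ligand of alpha-neurexins, Ccn2 (connective tissue growth factor) is a matrix-associated secreted protein, and Gnb4 is a beta subunit of heterotrimeric G proteins.

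Nr4a2, Cbln4, Cplx3 and Nxph4 were higher in every WT mouse under DHA than under vehicle. The first 2 were chosen by their rise with DHA, and 5.02% of all genes tested had no overlap between these groups. Nr4a2 and Cbln4 also varied together between mice, a relation that rested largely on 2 mice. The DNA just before the transcription starts of Nr4a2, Cbln4 and Cplx3 is shown. Only for these 3 of the 6 genes were RefSeq sequences (table of the build GRCm38.p6) matched. Each is the 250 bases before the annotated start, lies outside exons, and is written 5′ to 3′ on the strand of the gene. Capitals mark TGACG, the half-site of the cAMP response element to which CREB binds, on either strand (CGTCA when it is on the other strand), and AGGTCA, the half-site shared by nuclear receptors. The windows are chr2:57124004-57124253 on the minus strand for Nr4a2, chr2:172043467-172043716 on the minus strand for Cbln4 and chr9:57606282-57606531 on the minus strand for Cplx3.
Nr4a2: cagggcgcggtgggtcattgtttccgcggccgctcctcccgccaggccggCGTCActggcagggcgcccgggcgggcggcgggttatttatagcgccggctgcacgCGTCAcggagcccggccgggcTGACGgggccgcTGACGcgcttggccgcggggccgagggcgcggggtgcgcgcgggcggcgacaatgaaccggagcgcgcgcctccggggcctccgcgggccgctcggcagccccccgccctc
Cbln4: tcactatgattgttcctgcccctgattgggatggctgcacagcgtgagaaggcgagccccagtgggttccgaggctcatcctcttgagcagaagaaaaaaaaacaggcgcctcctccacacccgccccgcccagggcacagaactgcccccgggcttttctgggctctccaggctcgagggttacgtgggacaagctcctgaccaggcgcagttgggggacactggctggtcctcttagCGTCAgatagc
Cplx3: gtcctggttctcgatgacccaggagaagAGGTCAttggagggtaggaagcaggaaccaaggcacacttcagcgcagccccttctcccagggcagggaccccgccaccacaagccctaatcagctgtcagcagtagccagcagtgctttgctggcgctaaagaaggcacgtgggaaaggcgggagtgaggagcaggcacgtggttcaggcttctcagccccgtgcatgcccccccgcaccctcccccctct

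The Nr4a2 window held 4 copies of TGACG, which began at positions -200, -144, -123 and -111, where position -1 is the last base before the start. Of 32851 windows of the same length in the table, 17.77% held at least 1 copy on either strand and 45 (0.137%) held 4 or more. The Cbln4 window held a single copy, from -11 to -7 on the opposite strand, and the Cplx3 window held none. The full cAMP response element TGACGTCA, which contains TGACG, was in none of the 3 windows and in 1.55% of all windows. Cplx3 had a single AGGTCA, from -222 to -217, a motif that was in 14.02% of all windows. The NBRE, the element bound by single NR4A proteins (AAAGGTCA, which contains AGGTCA), was in none of the 3 and in 1.34% of all windows. The windows also differed in base composition, with 80.0% G and C for Nr4a2, 60.8% for Cbln4 and 62.8% for Cplx3. A match of letters is a description only and shows no binding.

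Total counts ranged from 17372864 to 46596489 per mouse, and the biological coefficient of variation common to all genes was 20.1%. Markers of the hippocampal fields were present in every mouse, with summed levels of 377 to 570 CPM (counts scaled to library size, with TMM factors) for 4 CA1 genes and 254 to 432 CPM for 6 dentate gyrus genes. Choroid plexus genes differed widely between mice, with sums of 66.7 to 5851 CPM within the WT DHA group alone. Tg2576 vehicle replicate 2 had the highest Nr4a2, Cbln4, Cplx3 and Gnb4 of its group and the highest sum of 15 immediate early genes of all mice (1482 CPM). The main results that rest on this mouse are also given without it. A gene is said to pass, rise or fall where its unadjusted p in the edgeR quasi-likelihood test was under 0.01, and adjusted p values are Benjamini-Hochberg values over all genes tested. With DHA 1.38% of all genes passed in WT and 0.353% in Tg2576 mice, so a count of 0 in a short list is near these shares.

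Per kilobase of exon, Nr4a2 was the most abundant of the 6 (14.4 CPM per kb, averaged over all mice), followed by Cbln4 (5.36), Ccn2 (4.50), Cplx3 (3.63), Nxph4 (1.42) and Gnb4 (1.20). Raw counts per mouse lay between 753 and 2707 for Nr4a2, 148 and 832 for Cbln4, 114 and 601 for Ccn2, 156 and 544 for Cplx3, and 253 and 648 for Gnb4. Nxph4, with only 26 to 114 reads per mouse, was the least deeply counted and its values carry the most counting error. Its count was an even number in every mouse, and whether both reads of a pair were counted was not tested. All 6 genes are on autosomes (GRCm38, annotation GENCODE M25). Nr4a2 (ENSMUSG00000026826.13) spans 57106830 to 57124003 and Cbln4 (ENSMUSG00000067578.3) 172036233 to 172043466, both on chromosome 2. Cplx3 (ENSMUSG00000039714.9) lies at 57599992 to 57606281 on chromosome 9, and Gnb4 (ENSMUSG00000027669.14) at 32580332 to 32616585 on chromosome 3. Nxph4 (ENSMUSG00000040258.6) at 127525473 to 127534559 and Ccn2 (ENSMUSG00000019997.11) at 24595442 to 24598683 are both on chromosome 10. Ccn2 shares 665 of its exonic bases (23.2%) with the antisense gene Gm15270, which had 0 to 15 counts per mouse. Strand was not used in counting, so reads of the 2 genes there cannot be told apart. In bulk RNA, moreover, fewer cells of a type and less RNA per cell cannot be told apart.

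Nr4a2 was higher under DHA in both genotypes, which is how it was chosen, so its DHA values are given without a test. In WT vehicle mice it was at 56.7, 49.5, 41.8 and 53.0 CPM (mean 50.3 ± 6.37 SD, n = 4), and in WT DHA mice at 70.3, 87.9, 63.7 and 69.1 CPM (mean 72.8 ± 10.5 SD, n = 4). Tg2576 vehicle mice had 46.3, 61.2, 41.7 and 30.6 CPM (mean 44.9 ± 12.7 SD, n = 4), and Tg2576 DHA mice 60.6, 73.5 and 70.3 CPM (mean 68.1 ± 6.70 SD, n = 3). The WT groups did not overlap, whereas in Tg2576 mice vehicle replicate 2 lay just above the lowest DHA mouse. The DHA mice were 1.45-fold higher in WT (log2 fold change 0.53, standard error 0.163). In Tg2576 mice they were 1.51-fold higher (0.60, standard error 0.175). It ranged from 0.43 to 0.60 and from 0.45 to 0.79 over 23 alternative settings, with 0.79 reached without Tg2576 vehicle replicate 2.

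Cbln4, the secreted neurexin ligand, differed more in fold but was less even among Tg2576 vehicle mice. Its levels were 11.1, 10.3, 9.39 and 10.5 CPM in WT vehicle mice (mean 10.3 ± 0.699 SD, n = 4) and 22.4, 27.0, 22.8 and 16.3 CPM in WT DHA mice (mean 22.1 ± 4.40 SD, n = 4). In Tg2576 mice they were 8.97, 20.5, 8.77 and 6.02 CPM under vehicle (mean 11.1 ± 6.44 SD, n = 4) and 20.7, 23.6 and 14.9 CPM under DHA (mean 19.7 ± 4.38 SD, n = 3). The 4 WT vehicle mice were all below the WT DHA mice. In Tg2576 mice a single vehicle mouse, replicate 2, reached the levels of the DHA mice, and the other 3 were below all of them. In WT mice the log2 fold change was 1.10 (standard error 0.285). It was 0.83 among Tg2576 mice (standard error 0.303). Without Tg2576 vehicle replicate 2 the latter was 1.32, and without Tg2576 vehicle replicate 4 it was 0.61.

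**Figure D1:**
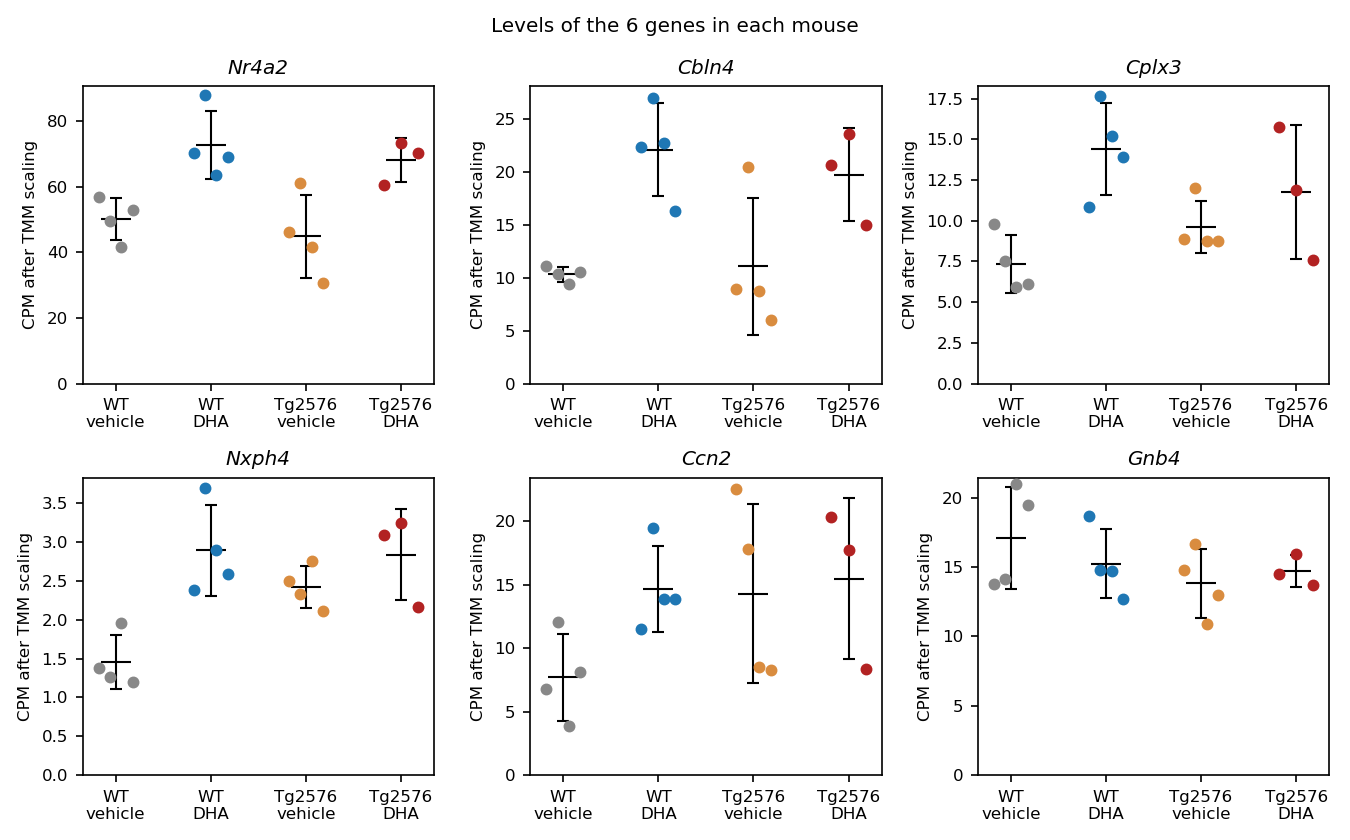
Levels of the 6 genes in each of the 15 mice, in CPM after TMM scaling, by group. Points are mice, horizontal bars are group means and error bars are SDs. Nr4a2 and Cbln4 were high under DHA in both genotypes, while Cplx3, Nxph4 and Ccn2 had their lowest mean in WT vehicle mice.

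Cplx3, the complexin of layer 6b neurons, rose with DHA in WT mice. It was at 9.82, 7.54, 5.91 and 6.14 CPM in WT vehicle mice (mean 7.35 ± 1.80 SD, n = 4) and at 10.8, 17.7, 15.2 and 13.9 CPM in WT DHA mice (mean 14.4 ± 2.85 SD, n = 4). Every WT DHA mouse was above every WT vehicle mouse. The log2 fold change was 0.97 (standard error 0.218), with an unadjusted p of 3.5e-04 and an adjusted p of 0.398 in edgeR's quasi-likelihood test with Benjamini-Hochberg adjustment. The exact permutation p was 0.0286 (two-sided), the smallest that 4 against 4 mice allow.

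Nxph4, the alpha-neurexin ligand, rose by a like amount from a low level. WT vehicle mice had 1.38, 1.26, 1.96 and 1.20 CPM (mean 1.45 ± 0.348 SD, n = 4) and WT DHA mice 2.38, 3.70, 2.90 and 2.59 CPM (mean 2.89 ± 0.581 SD, n = 4). These groups did not overlap either (exact permutation p = 0.0286). The log2 fold change was 0.997 (standard error 0.231, edgeR unadjusted p = 4.5e-04, adjusted p = 0.404).

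Ccn2 had a fold change of similar size with a wider spread. It was at 6.81, 12.1, 3.85 and 8.09 CPM in WT vehicle mice (mean 7.71 ± 3.42 SD, n = 4) and at 11.5, 19.5, 13.9 and 13.9 CPM in WT DHA mice (mean 14.7 ± 3.41 SD, n = 4). WT vehicle replicate 2 lay above the lowest WT DHA mouse, so the groups overlapped (exact permutation p = 0.0571). The log2 fold change of 0.94 (standard error 0.394) had an edgeR p of 0.0313 (adjusted p = 0.817) and did not pass 0.01. Without WT vehicle replicate 2 it was 1.23 with a p of 0.00896.

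Gnb4, the claustrum marker, had no called change. Its levels were 13.8, 14.2, 20.9 and 19.5 CPM in WT vehicle mice and 18.7, 14.8, 14.7 and 12.7 CPM in WT DHA mice, with wide overlap. The means were 17.1 ± 3.66 and 15.2 ± 2.49 CPM (SD, n = 4 each), a log2 fold change of -0.17 (standard error 0.163, edgeR adjusted p = 0.904, exact permutation p = 0.429).

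Thus 2 of the 4 genes not chosen by their DHA response, Cplx3 and Nxph4, passed an unadjusted p of 0.01 in WT mice, where 1.38% of all genes tested passed. The levels of these 2 also did not overlap between the groups, as was so for 5.02% of all genes. Both kept p under 0.01 in every alternative setting, with log2 fold changes of 0.85 to 1.15 for Cplx3 and 0.85 to 1.17 for Nxph4. Neither passed an adjusted p of 0.05 with edgeR, where 0 genes did in this comparison beside 1157 with an unadjusted p under 0.05. At an adjusted p of 0.05, DESeq2 called 32 genes and limma-voom 0. With DESeq2 the adjusted p was 0.0184 for Cplx3 and 0.0326 for Nxph4, and over all settings it reached 0.995 for each. The 4 genes were listed as markers with earlier results of these mice known, so the count is not independent evidence of a response.

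In Tg2576 mice the same 4 genes gave smaller differences with DHA, and none passed. Cplx3 was at 8.86, 11.99, 8.77 and 8.78 CPM under vehicle (mean 9.60 ± 1.59 SD, n = 4) and at 15.8, 11.9 and 7.59 CPM under DHA (mean 11.8 ± 4.09 SD, n = 3). The DHA mice lay on both sides of the vehicle mice. Nxph4 was at 2.498, 2.33, 2.75 and 2.11 CPM under vehicle (mean 2.42 ± 0.269 SD, n = 4) and at 3.10, 3.25 and 2.17 CPM under DHA (mean 2.84 ± 0.585 SD, n = 3). Only Tg2576 DHA replicate 3 fell within the vehicle range. Ccn2 split both groups, with 22.5, 17.8, 8.55 and 8.29 CPM under vehicle (mean 14.3 ± 7.06 SD, n = 4) and 20.4, 17.8 and 8.32 CPM under DHA (mean 15.5 ± 6.34 SD, n = 3). Gnb4 was at 14.8, 16.7, 10.9 and 12.97 CPM under vehicle and at 14.5, 16.0 and 13.7 CPM under DHA, all 3 within the vehicle range.

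The log2 fold changes in Tg2576 mice were 0.29 for Cplx3 (standard error 0.233), 0.23 for Nxph4 (standard error 0.243), 0.12 for Ccn2 (standard error 0.416) and 0.089 for Gnb4 (standard error 0.176). Their edgeR p values were 0.229, 0.353, 0.777 and 0.620, and each adjusted p was 0.999. Thus 0 of 4 passed 0.01, where 0.353% of all genes did. Groups that did not overlap were seen for 3.21% of all genes and for none of the 6. With 4 against 3 mice an exact permutation test cannot go below 0.0571. The estimate for Cplx3 leaned on single mice, since it was 0.0268 once Tg2576 DHA replicate 1 was left out and 0.52 once replicate 3 of that group was. For Ccn2 it turned negative without Tg2576 DHA replicate 1 (-0.12), Tg2576 vehicle replicate 3 (-0.061) or Tg2576 vehicle replicate 4 (-0.074), and for Gnb4 without Tg2576 vehicle replicate 3 (-0.0101).

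Averaged over both genotypes, DHA raised Cplx3 by 0.63 (standard error 0.159, edgeR adjusted p = 0.835) and Nxph4 by 0.61 (standard error 0.167, adjusted p = 0.892) on the log2 scale, both past an unadjusted 0.01. Ccn2 had 0.53 (standard error 0.285) and Gnb4 -0.040 (standard error 0.120), with adjusted p = 0.9998 for each. The count was again 2 of 4, beside 0.87% of all genes. Both calls came with larger differences in WT than in Tg2576 mice, and the test of that difference follows.

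The interaction of genotype and DHA was -0.68 for Cplx3 (standard error 0.320) and -0.76 for Nxph4 (standard error 0.336), where a negative value means a smaller change with DHA in Tg2576 than in WT mice. It was -0.82 for Ccn2 (standard error 0.574) and 0.26 for Gnb4 (standard error 0.240). In edgeR, adjusted p values were 0.845 to 0.854, and 0 of the 4 genes passed 0.01, beside 0.829% of all genes. A difference between the genotypes in the response to DHA was therefore not shown for any of them. Without Tg2576 DHA replicate 1 the interaction of Cplx3 was -0.95 and passed the unadjusted 0.01 (adjusted p = 0.364), as did 527 genes in all in that fit beside 162 with every mouse, and with replicate 3 of that group left out it was -0.44. For the genes chosen by DHA it was 0.065 for Nr4a2 (standard error 0.239) and -0.27 for Cbln4 (standard error 0.416), given without a test. Without Tg2576 vehicle replicate 2 these were 0.25 and 0.22, and the value of Nr4a2 was -0.090 without Tg2576 vehicle replicate 4.

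Under vehicle, the genotypes differed for Nxph4 alone among the 6 genes. Each Tg2576 vehicle mouse (2.11 to 2.75 CPM) was above each WT vehicle mouse (1.20 to 1.96 CPM), with a log2 fold change of 0.74 (standard error 0.232), an edgeR p of 0.00538, an adjusted p of 0.285 and an exact permutation p of 0.0286. That is 1 of 6 genes called, beside 3.09% of all genes, and 1 of 6 without overlap, beside 5.16%. The call was lost without WT vehicle replicate 1, 2 or 4 or Tg2576 vehicle replicate 1 or 3, without a filter on low counts and when only these 2 groups were fitted. Ccn2 was also higher on average in Tg2576 vehicle mice (log2 fold change 0.90, standard error 0.394), with a p of 0.0390 and overlapping groups. Its 2 high values, replicates 1 and 2, were about those of the DHA mice.

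Cplx3 gave 0.38 (standard error 0.218), Gnb4 -0.31 (standard error 0.163), Nr4a2 -0.16 (standard error 0.163) and Cbln4 0.11 (standard error 0.286) in the same comparison, with exact permutation p values of 0.114, 0.200, 0.457 and 0.914. For Nr4a2 and Cbln4 these values turned on Tg2576 vehicle replicate 2. Without it both were lower in Tg2576 than in WT vehicle mice, by log2 fold changes of -0.35 and -0.39, neither past 0.01. Without Tg2576 vehicle replicate 4, Nr4a2 was at 0.00345. Both vehicle groups also entered the DHA differences by which Nr4a2 and Cbln4 were chosen. The comparison shares the WT vehicle mice with that of DHA in WT mice, so a low value in those 4 mice enters both. For Nxph4 the log2 fold changes from them were 0.74 to the Tg2576 vehicle and 0.997 to the WT DHA mice, for Ccn2 0.90 and 0.94, and for Cplx3 0.38 and 0.97.

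Among DHA-treated mice, 0 of the 6 genes differed between genotypes, where 1.75% of all genes passed and 8.56% did not overlap. Nr4a2 and Cbln4 were chosen by their rise with DHA in these same mice, so for them the comparison is not independent of the choice. The log2 fold changes were -0.29 for Cplx3 (standard error 0.233), -0.17 for Cbln4 (standard error 0.303), -0.096 for Nr4a2 (standard error 0.175), -0.050 for Gnb4 (standard error 0.176), -0.028 for Nxph4 (standard error 0.242) and 0.075 for Ccn2 (standard error 0.416). Each was smaller than 1.5 times its standard error, and edgeR p values ran from 0.225 to 0.908. These intervals leave room for differences of the size of these standard errors and more, most of all for Ccn2.

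**Figure D2:**
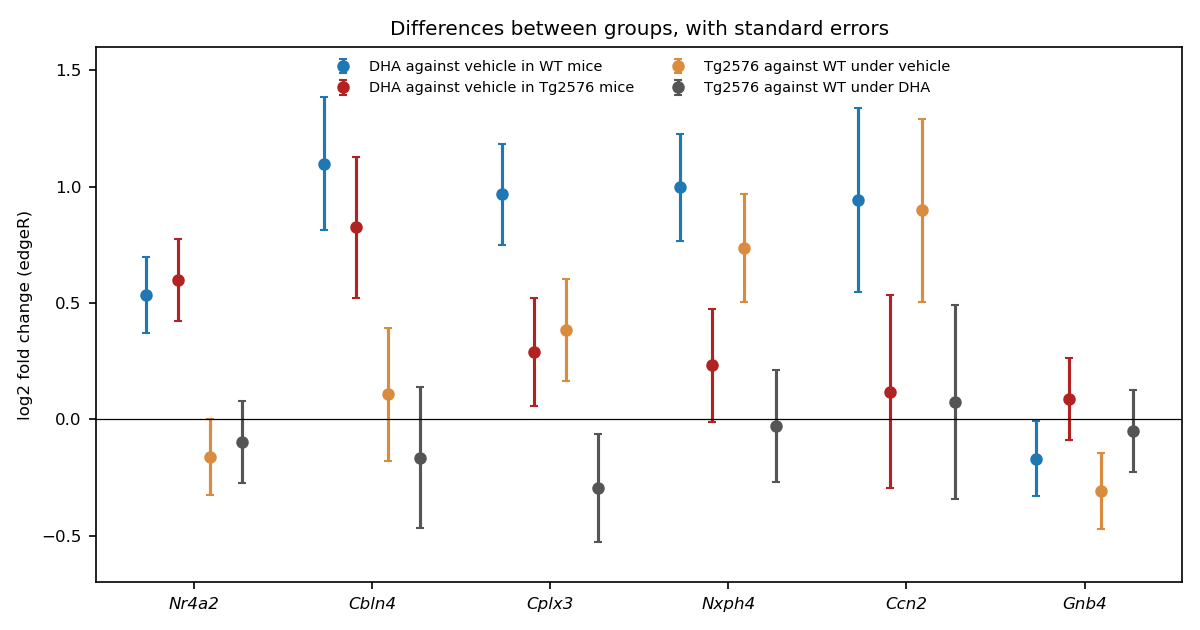
Log2 fold changes of the 6 genes from edgeR in 4 comparisons, with standard errors. DHA in WT mice (blue) gave 0.94 to 1.10 for Cbln4, Cplx3, Nxph4 and Ccn2, while Gnb4 lay between -0.31 and 0.089 in the 4 comparisons. The values of Nr4a2 and Cbln4 under DHA are those by which they were chosen.

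In order of group means, Nr4a2 and Cbln4 ran from WT DHA through Tg2576 DHA down to the vehicle groups, which differed by less than their spread. For Cplx3 the order was WT DHA, Tg2576 DHA, Tg2576 vehicle and WT vehicle, and the spread of the 3 Tg2576 DHA mice covered the Tg2576 vehicle mean. For Nxph4, WT DHA, Tg2576 DHA and Tg2576 vehicle were within the spread of each other, and WT vehicle stood below all of them. For Ccn2 the same 3 groups lay between 14.3 and 15.5 CPM on average with SDs of 3.41 to 7.06, and WT vehicle was at 7.71. For Gnb4 all 4 means, 13.8 to 17.1 CPM, differed by less than the SD of the WT vehicle mice.

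Within groups, the mice that had more Nr4a2 also had more Cbln4. The deviations of log2 CPM from the group means had a Pearson r of 0.79 over the 15 mice (Spearman rho 0.63), and 0.91 before group means were removed, a value that includes the DHA difference for which both genes were chosen. Co-variation among these mice was also part of how the set of genes was put together, so r is given as a description. Both levels come from the same libraries, so a shared shift of a library enters both. Tg2576 vehicle replicate 2, with deviations of 0.49 for Nr4a2 and 1.04 for Cbln4, and Tg2576 vehicle replicate 4, the lowest for both, lay at the ends of the relation. Without replicate 2, and with group means taken anew, r was 0.60. Without both, but with deviations from the means of all mice, it was 0.38. The relation thus rested largely on these 2 mice.

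Among the layer 6b genes, Cplx3 and Ccn2 varied together most (r = 0.60, rho 0.61, from 0.45 without Tg2576 DHA replicate 3 to 0.72 without Tg2576 vehicle replicate 1). Cplx3 and Nxph4 had r = 0.39 (0.12 to 0.71 without 1 mouse), and Nxph4 and Ccn2 0.075 (-0.21 to 0.51). Nxph4 has the fewest reads, and its weak correlations show little. Cbln4 was about equally related to Cplx3 (0.55) and Ccn2 (0.53), and Nr4a2 was related to Ccn2 (0.52) more than to Cplx3 (0.34, and 0.17 without Tg2576 vehicle replicate 2) or Nxph4 (0.031). Gnb4 was not clearly tied to any of them, with r from -0.23 (Cplx3) to 0.41 (Cbln4, and 0.16 without Tg2576 vehicle replicate 2).

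**Figure D3:**
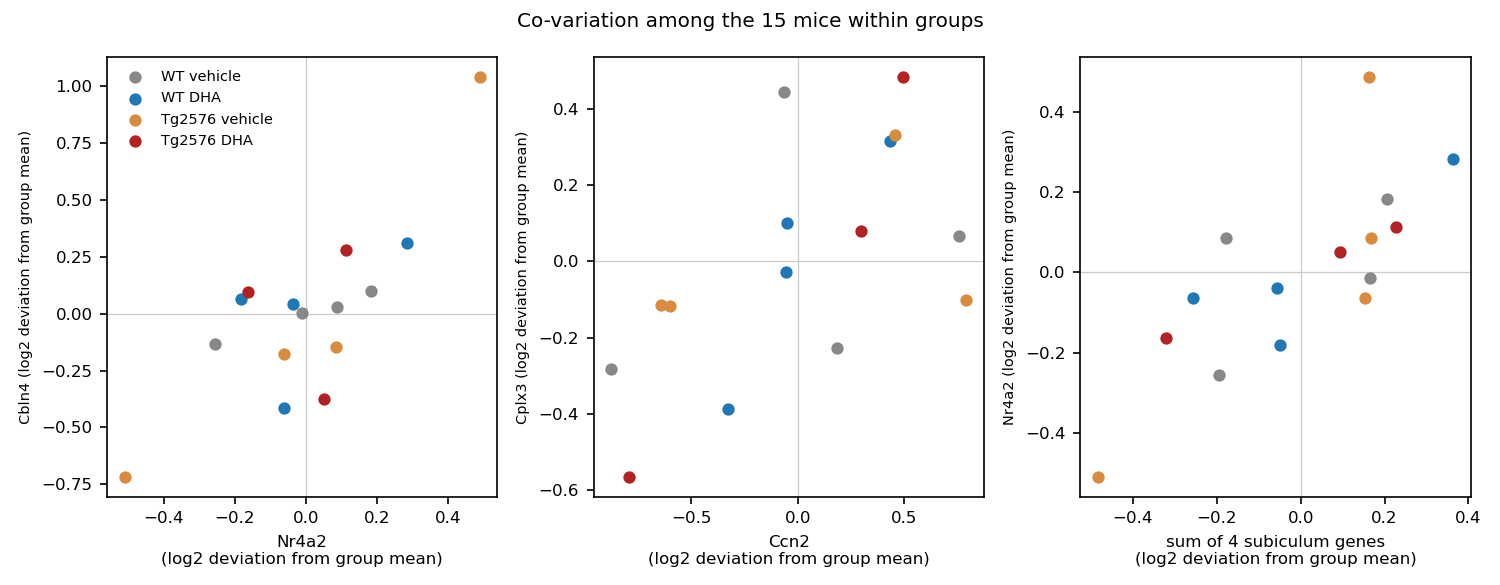
Deviations of log2 levels from the group means in the 15 mice, for Nr4a2 and Cbln4 (left), Ccn2 and Cplx3 (middle), and the summed CPM of 4 subiculum genes and Nr4a2 (right). Colours are the 4 groups. The 2 Tg2576 vehicle mice at the far ends of the left panel are replicates 2 and 4.

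Markers of neighbouring regions were followed in the same mice. The sum of 4 subiculum genes (Fn1, Nts, Slc17a6 and Ly6g6e) varied with Nr4a2 within groups (r = 0.77, rho 0.77, 0.61 to 0.85 without 1 mouse). Most of that sum is Fn1, fibronectin (mean 59.6 CPM), and taken singly the subiculum genes had a median r of 0.30 with Nr4a2, below the 0.53 of the vessel and meninges genes. Under vehicle the sum ranged over 75.7 to 99.9 CPM in WT and 57.8 to 90.7 CPM in Tg2576 mice, and under DHA over 64.8 to 99.6 and 69.2 to 101 CPM, so these ranges overlapped between DHA and vehicle. None of the 4 subiculum genes passed 0.01 with DHA, and their median log2 fold change was -0.15 in WT and 0.29 in Tg2576 mice, beside -0.0135 and -0.00389 over all genes. The sum of 8 deep-layer neocortex genes also varied with Nr4a2 (r = 0.65, 0.58 to 0.74 without 1 mouse), but its genes taken singly had a median r of 0.072, beside 0.0081 over all genes searched. In that list, 0 genes passed with DHA in WT mice and 2 of 8 rose in Tg2576 mice, where 0.353% of all genes passed. These were Tle4, by 0.34, and Parm1, by 0.44 (edgeR adjusted p = 0.999 for each, unadjusted under 0.01), and the median was 0.12. Between genotypes, 2 of the 8 were called higher in Tg2576 mice under vehicle, where 3.09% of all genes passed. Under DHA 0 passed, and all 8 were higher in Tg2576 mice (median 0.23). The part of subicular or neocortical tissue in the Nr4a2 values was not tested.

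For Cplx3, Nxph4 and Ccn2 the sums of subiculum genes (r = 0.21, 0.23 and 0.38) and of deep-layer genes (0.078, -0.090 and 0.42) gave values that turned on single mice. Without Tg2576 DHA replicate 1, Cplx3 had r = 0.57 with the subiculum and 0.53 with the deep-layer sum, and Ccn2 0.59 and 0.74. Of the region lists, Nxph4 varied most with the thalamus (r = 0.67, 0.47 without WT vehicle replicate 3, the mouse with the highest thalamus sum) and ran against the dentate gyrus (r = -0.62). Cplx3 ran against the CA1 list (r = -0.62, -0.77 to -0.54 without 1 mouse) and the claustrum list (r = -0.55, -0.26 without Tg2576 DHA replicate 1), and Ccn2 against the somatostatin interneuron list (r = -0.60). Choroid plexus genes, which varied over a wide range, had a median log2 fold change of 0.99 with DHA in Tg2576 mice and -0.33 in WT mice, with 0 of 7 genes passing in either. Their sums in Tg2576 DHA mice (3139 to 5176 CPM) fell within or above the range of Tg2576 vehicle mice (144 to 3196 CPM). Their part in the members' values was not tested.

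**Figure D4:**
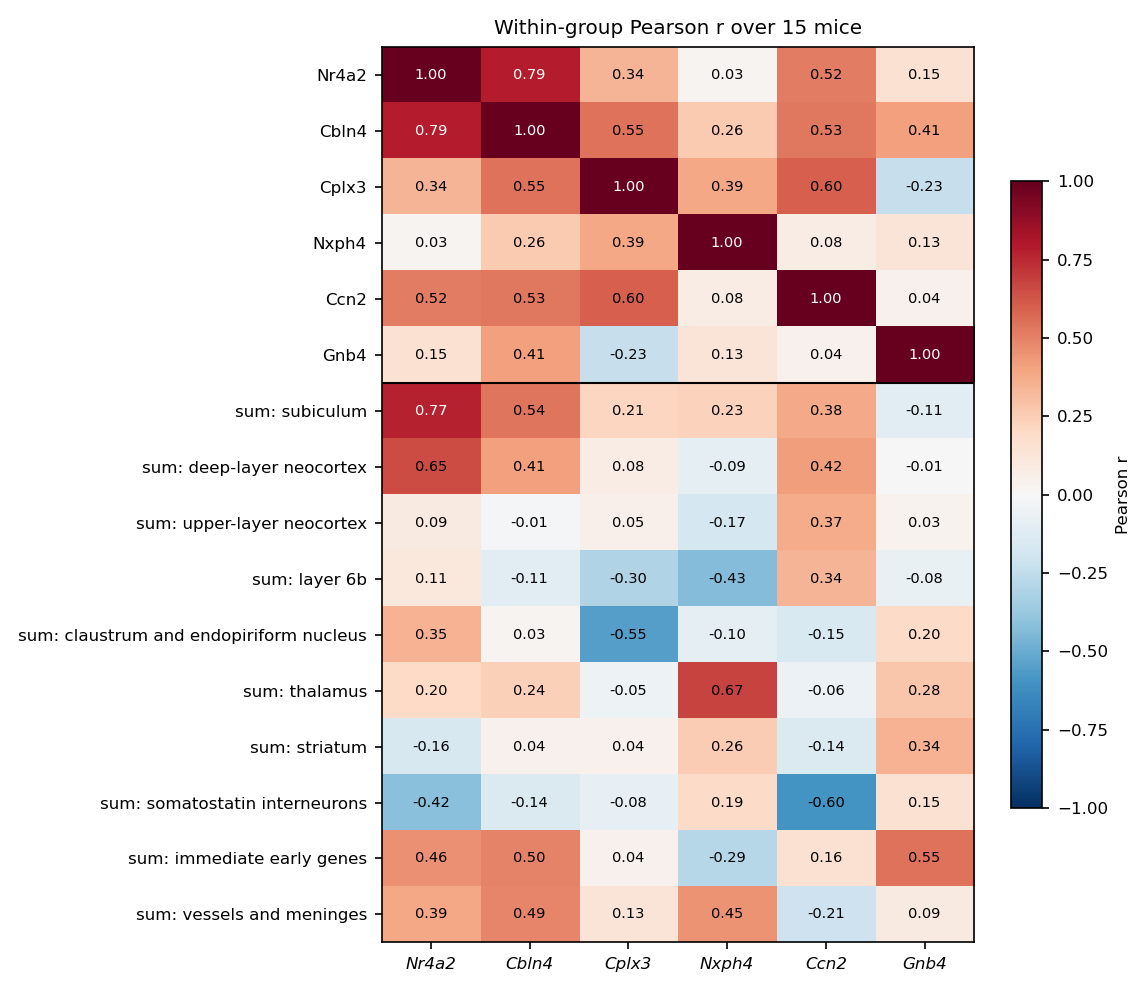
Within-group Pearson r over 15 mice between the 6 genes (upper block) and between each gene and the summed CPM of 10 marker lists (lower block, members of the set left out of the sums). The highest values off the diagonal were 0.79 for Nr4a2 and Cbln4 and 0.77 for Nr4a2 and the subiculum list. The list of other layer 6b genes gave r of -0.43 to 0.34.

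The 5 other markers of layer 6b were Moxd1, Tmem163, Drd1, Kcnab1 and Hs3st4, of which 0 rose and 1 fell with DHA in WT mice (Kcnab1, log2 fold change -0.25, edgeR adjusted p = 0.647), with a median of 0.043 (1.38% of all genes passed in this comparison). In Tg2576 mice 0 passed and the median was -0.0125. Their summed level was 213 to 268 CPM over all mice, most of it from Kcnab1 (mean 113 CPM) and Hs3st4 (101 CPM), which are also used by hippocampal neurons. The sum was unrelated or weakly opposed to Cplx3 (r = -0.30) and Nxph4 (-0.43) and weakly related to Ccn2 (0.34). No test compared these markers with Cplx3 and Nxph4, and the genes are named singly here.

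The claustrum list, beside Nr4a2 and Gnb4, held Lxn, a carboxypeptidase inhibitor, Ntng2, a netrin-related adhesion protein, Gng2, a G protein gamma subunit, the opioid receptor Oprk1 and the neuropeptide S receptor Npsr1. Of these 5, 0 passed with DHA in WT or Tg2576 mice, with medians of -0.055 and 0.044. Their sum was 220 to 296 CPM in all groups and had r = 0.35 with Nr4a2 and 0.20 with Gnb4.

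The relatives of Nr4a2 showed no called change with DHA. Nr4a1 was at 0.49 in WT and -0.37 in Tg2576 mice on the log2 fold change scale (exact permutation p = 0.0857 and 0.400). Nr4a3 was at 0.16 and 0.38 (exact permutation p = 0.371 and 0.143). Among the retinoid X receptors, Rxra, Rxrb and Rxrg had 0.12, 0.056 and 0.57 in WT and 0.093, -0.099 and 0.42 in Tg2576 mice. Over these 5 genes 0 were called in any comparison, and the median with DHA was 0.16 in WT and 0.093 in Tg2576 mice. Immediate early genes respond to neuronal activity as Nr4a2 does, and the 15 listed include Nr4a1 and Nr4a3. In either genotype 0 of 15 were called, where 1.38% of all genes passed in WT and 0.353% in Tg2576 mice. With DHA 13 of these 15 genes were higher in WT and 12 were lower in Tg2576 mice, with medians of 0.17 and -0.20. Their sum had r = 0.46 with Nr4a2 and 0.50 with Cbln4 within groups, but -0.11 and -0.45 without Tg2576 vehicle replicate 2. Midbrain dopamine genes, for whose neurons Nr4a2 is best known, were at or near 0 for Pitx3 and En1 (0 to 0.14 CPM), and Th was at 0.23 to 1.52 CPM.

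Relatives and receptors of Cbln4 were also followed. Of 8 genes (Cbln1, Cbln2, Cbln3, the neurexins Nrxn2 and Nrxn3, the receptor Grid1, and Dcc and Neo1), 0 rose and 1 fell with DHA in WT mice, and 6 of 8 estimates were negative (median -0.21), where 1.38% of all genes passed. Neo1, neogenin, fell by 0.37 on the log2 scale (edgeR adjusted p = 0.594, exact permutation p = 0.0286). It was also lower in Tg2576 than in WT vehicle mice (-0.40, adjusted p = 0.204), a comparison with the same WT vehicle mice. In Tg2576 mice 0 of 8 passed with DHA and the median was 0.077.

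Among the other families, Nxph3, which is an alpha-neurexin ligand like Nxph4, was the single relative that rose with DHA over both genotypes (0.30, standard error 0.0977, unadjusted p under 0.01, edgeR adjusted p = 0.9998), with 0.31 in WT and 0.29 in Tg2576 mice. The sum of Nxph1, Nxph2 and Nxph3 also varied with Nxph4 within groups (r = 0.73, 0.62 to 0.81 without 1 mouse). The complexins Cplx1 and Cplx2, far more abundant than Cplx3, were at 0.18 and -0.019 in WT mice and did not pass, and Cplx4 had at most 2 reads per mouse. Of 7 tested CCN and YAP-TEAD genes, 0 passed with DHA in either genotype. Ccn1, a close relative of Ccn2, was higher in Tg2576 than in WT vehicle mice (0.85, edgeR adjusted p = 0.198), and Tead1 had an interaction of 0.66 (adjusted p = 0.845). The G protein beta subunits Gnb1, Gnb2 and Gnb5 lay between -0.16 and 0.16 with DHA in both genotypes, and the rare Gnb3 was called under vehicle (1.49, edgeR adjusted p = 0.318) from 2 to 20 reads per mouse.

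**Figure D5:**
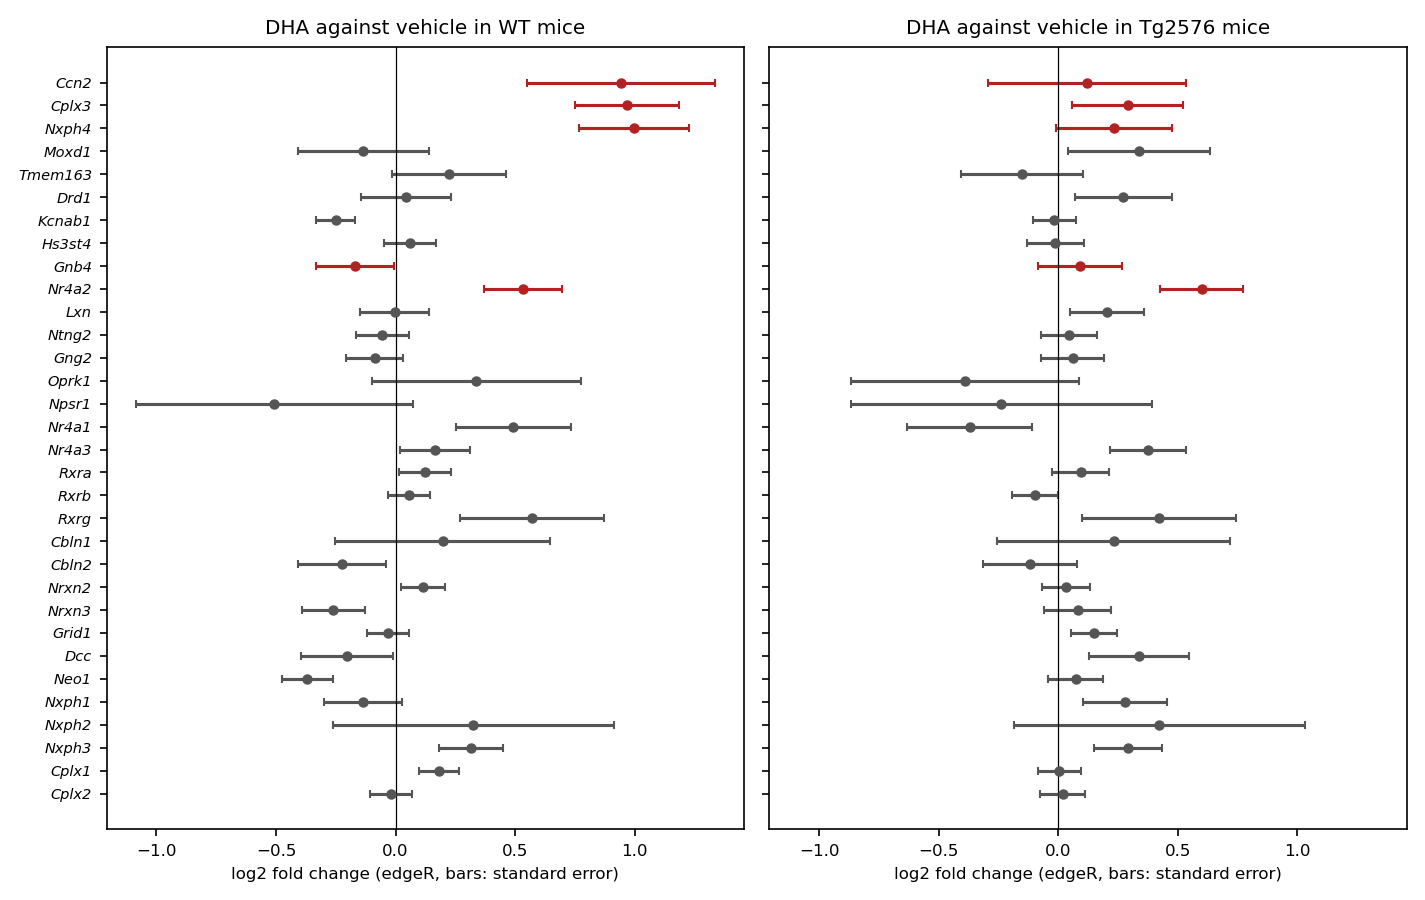
Log2 fold changes with DHA from edgeR, with standard errors, for 5 of the 6 genes (red) and for other layer 6b and claustrum markers and family members (grey), in WT (left) and Tg2576 mice (right). Cbln4 belongs to no list and is not shown, and Cbln3 is not drawn because a single mouse, WT vehicle replicate 3, held most of its reads. In WT mice Ccn2, Cplx3 and Nxph4 were the 3 highest.

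Genes were ranked by how closely their within-group levels followed Nr4a2, Cbln4 and the sum of Cplx3, Nxph4 and Ccn2, and in these 3 searches the closest 8 held none of the members. Of 15469 genes with a mean of at least 1 CPM, those most like Nr4a2 over the 15 mice were Sema3c (r = 0.944), Rnmt (0.937), Zmpste24 (0.920), Cntnap5a (0.914), Ikzf2 (0.914), Rfwd3 (0.910), Tm9sf2 (0.905) and Arl5a (0.904). Cbln4 lay at the 98.3 percentile of that ranking, and Ccn2 and Cplx3 at 83.7 and 72.0. Seen from Cbln4, Nr4a2 was at the 99.8 percentile, behind Dsc3 (0.855), Cd164 (0.847), Ube2e1 (0.846), Mrc1 (0.842), Aplp2 (0.838), Nfe2l1 (0.833), Rspo2 (0.831) and Tspyl4 (0.830). These leaned more on single mice, since leaving out 1 mouse brought r down to 0.52 for Ube2e1 and 0.54 for Tspyl4. In the Nr4a2 list the lowest such value was 0.837 (Tm9sf2). For the summed level of Cplx3, Nxph4 and Ccn2, the closest genes were Meis2 (0.884), Fbh1 (0.867), Sv2a (0.843), Gm44949 (0.832), Chsy3 (0.818), Fhod3 (0.815), Ndufs1 (0.812) and Rcbtb1 (0.806). With this many genes searched over 15 mice, values of this height are the top of a long list and are given as a description. The percentiles of the members are a description too, since co-variation entered the choice of the set.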

How the data were processed

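Hippocampal RNA of 15 mice was sequenced, and 1 table of raw read counts per gene was deposited by the authors for each mouse. Per the file headers, the authors counted reads over exons with featureCounts 1.6.0 and GENCODE M25 (GRCm38), without a strand option. Exon lengths in the deposited count tables were used for levels per kilobase. The submitters' processing notes also name STAR 2.6.1c and FastQC 0.11.8. The library kit is given differently by the labels and the methods, so strandedness is not stated here. Symbols were matched for 55141 of 55401 genes.

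Samples were grouped by the genotype and treatment in their labels. Genes were filtered with filterByExpr (minimum count 10), scaled by TMM and fitted in edgeR 4.0.16 (R 4.3.3) with 1 coefficient per group over all 15 mice, which share 1 estimate of the spread. The quasi-likelihood test was run for 6 comparisons, with Benjamini-Hochberg adjustment over 19536 genes. A gene was called at an unadjusted p under 0.01. Levels are CPM, and log2 CPM used a prior count of 2. Exact permutation tests on log2 CPM were two-sided. Scripts were tested on simulated data. Alternatives were DESeq2 1.42.0, limma-voom (limma 3.58.1), other scalings and filters, a fit of 2 groups alone, a replicate block and leaving out each mouse.

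The members and gene lists were chosen with earlier results of these data known, and co-variation among the mice was part of how the members were put together. Named genes were the 6 members, the genes of their families and of the layer 6b and claustrum lists, at most 4 genes of any other list by lowest p, and the 8 genes most like Nr4a2, Cbln4 and the sum of Cplx3, Nxph4 and Ccn2. Of 133 list genes, 1 (Smim32) had no symbol match. Some genes of the cerebellin list are not reported here.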

Additional observations from a re-analysis of the deposited data

Results flagged for a closer look

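In groups of 4 mice, a single mouse stood apart from the other 3 in 1 of 18 groups for the 6 genes and in 6 of 36 groups for the marker sums, where chance alone flags about 1 in 20 groups. Cplx3 in Tg2576 vehicle replicate 2 was at 11.99 CPM, and the other 3 mice of that group were at 8.77 to 8.86 CPM. The summed subiculum genes were at 57.8 CPM in Tg2576 vehicle replicate 4, against 89.8 to 90.7 CPM in the other 3, and that mouse also had the lowest Nr4a2 and Cbln4. The choroid plexus sum was 5851 CPM in WT DHA replicate 3, against 66.7 to 355.5 CPM. In Tg2576 vehicle replicate 1 the midbrain dopamine sum was high at 16.5 CPM (others 12.3 to 12.99) and the somatostatin interneuron sum low at 280.2 CPM (others 380.2 to 393.9). In WT vehicle replicate 3 the thalamus sum was 218 CPM (others 135.5 to 149.6) and the sum of vessels and meninges 107 CPM (others 80.0 to 83.8). That mouse also had the highest Cbln3 of the WT vehicle mice (26.8 CPM, group median 0.90 CPM). Among them its Nr4a2, Cbln4, Cplx3 and Ccn2 were the lowest, and its Nxph4 and Gnb4 the highest. Whether other tissue was included in that sample was not tested.

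In edgeR the interaction of genotype and DHA had an unadjusted p under 0.01 for 2 of 123 listed genes, where 0.829% of all genes passed. Tead1, a transcription factor that acts with YAP, had an interaction of 0.66 on the log2 scale (standard error 0.206, edgeR adjusted p = 0.845). Otof, of the upper-layer neocortex list, had -1.63 (standard error 0.450, edgeR adjusted p = 0.845), with 1.07 in WT and -0.56 in Tg2576 mice. Neither passed the adjustment.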

How the results depend on the processing

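The calls of Cplx3 and Nxph4 with DHA in WT mice held in all alternatives run, and the count of genes called there was 2 or 3. The third was Ccn2, with the replicate block (log2 1.03, edgeR adjusted p = 0.446) or without WT vehicle replicate 2. Under vehicle the count between genotypes was 0 with no filter on low counts, 0 with only the 2 groups fitted, 2 with the replicate block (Nxph4 and Ccn2), and 0 to 1 when a mouse was left out. The interaction count was 0 to 1 when a mouse was left out.

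Directions that reversed belonged to differences near 0 or led by 1 mouse, and causes were not tested. Cbln4 under vehicle was -0.00619 with limma-voom and -0.0265 with the replicate block, Nxph4 between genotypes under DHA 0.00715 without TMM, and Ccn2 there -0.0836 with the block. Over the mice left out, genotype differences under vehicle ran from -0.39 to 0.33 for Cbln4 and -0.35 to 0.00345 for Nr4a2. Under DHA they ran from -0.17 to 0.37 for Ccn2, -0.13 to 0.0674 for Gnb4, -0.15 to 0.00937 for Nr4a2 and -0.14 to 0.13 for Nxph4. DHA differences in Tg2576 mice ran from -0.12 to 0.42 for Ccn2 and -0.0101 to 0.20 for Gnb4, and over both genotypes from -0.0952 to 0.0168 for Gnb4. Interactions ran from -0.49 to 0.22 for Cbln4 and -0.0900 to 0.25 for Nr4a2. Within-group r ran from -0.14 to 0.33 for Ccn2 and Gnb4, -0.15 to 0.36 for Nr4a2 and Gnb4, -0.18 to 0.30 for Nr4a2 and Nxph4, -0.21 to 0.51 for Nxph4 and Ccn2, and -0.18 to 0.32 for Nxph4 and Gnb4.

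Deviations of same-numbered mice, taken over all genes tested, had a median r of 0.0117 over 21 pairs, and 0.00305 over 63 other pairs. Single members differed from that. For Ccn2, replicate 2 was above its group mean in all 4 groups (log2 deviations 0.76, 0.43, 0.45 and 0.30). Replicate 3 was below it in all 4 (-0.87, -0.051, -0.60 and -0.79). For Cplx3 and Cbln4 replicate 2 was also above in all 4 groups, but for Nr4a2, Nxph4 and Gnb4 it was on both sides. With a replicate block in the edgeR fit, the unadjusted p of Ccn2 with DHA in WT mice was 0.00257, beside 0.0313 without the block. Whether replicate number stands for a batch was not tested. Over all genes, DHA in WT mice gave 270 calls, 431 with only the 2 groups fitted and 156 without WT vehicle replicate 1, and DHA in Tg2576 mice gave 69, 29 with only the 2 groups fitted, 126 with DESeq2, 126 with no filter, 122 without Tg2576 vehicle replicate 1, 250 without replicate 2 of that group and 312 without Tg2576 DHA replicate 1. With 26 to 114 reads per mouse, Nxph4 is limited most by depth.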
